A study of Mus musculus with 32 samples.

Results

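The colon of wild-type (WT) mice after 3 cycles of AOM/DSS (late AOM/DSS) was compared with the colon of untreated WT mice. The libraries were chosen by their titles: 4 of late WT colon and 4 of WT colon in the basal condition, 8 of 32 libraries in the series, which also holds *Dnase1l3*-KO mice, a stage after 1 cycle (early), and tumors. Each library was made from total RNA of the whole colon of 1 mouse, so mice are the replicates. All mice of both groups were C57BL/6 with both *Dnase1l3* alleles intact (*Dnase1l3*+/+). In the study's methods, mice that entered the AOM/DSS model were 3 months old, received 1 injection of azoxymethane (AOM, 8 mg per kg), and then went through cycles of 2.5% dextran sulfate sodium (DSS) in drinking water for 7 days followed by 14 days of regular water. Late colon was collected at day 80 of this procedure, 1-cycle colon at day 19 and basal colon at its start. Mice that lost more than 25% of their weight were removed, so the late group holds survivors. The age of the untreated mice and the time of day of collection are not given in the sources used here, and the number before each mouse's own number in the titles differed between the groups (81, 76, 76 and 77 in late mice, against 123, 134, 134 and 135 in untreated mice). Age, this number and treatment cannot be told apart here. Tumor libraries came from 3 of the 4 late mice (541, 542 and 555), and whether tumor tissue was also left in the late colon samples is not stated.

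AOM is converted in the body to an alkylating agent that causes mutations in colon epithelium, and DSS damages the epithelial barrier so that gut bacteria reach the tissue below. Repeated DSS courses set off rounds of acute inflammation and repair, and in such colons lymphocytes accumulate in the lamina propria while epithelial and stromal cells remodel. In mice given both agents, adenomas with active Wnt signaling arise mostly in the distal colon. The values below describe the mRNA of the whole organ, in which fewer cells of a type and less RNA per cell cannot be told apart.

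Single-end reads of 75 nt had been summed by the authors to raw counts per gene. Total counts ranged from 29955789 to 45323252 in late libraries and from 20326414 to 34377713 in untreated libraries (p = 0.086 by a two-sided exact permutation test, which with 4 against 4 mice cannot go below 0.029). Levels are given in CPM, that is counts scaled to library size by TMM, for late mice always in the order 581, 541, 542 and 555, and for untreated mice in the order 851, 918, 920 and 927. The defining markers of colon epithelium, smooth muscle, fibroblasts, endothelium, enteric neurons and immune cells were detected in both groups. Of the small-intestinal markers, *Lct* and *Sis* had at most 0.169 and 0.228 CPM in late mice and at most 2.15 and 0.9403 CPM in untreated mice. *Defa24*, also a marker of this check, was higher in late mice (1.75 to 66.4 CPM) than in untreated mice (0.0505 to 0.358 CPM), and *Fabp6* is not reported here. Pancreatic acinar genes summed to 83 to 272 CPM in late mice and 113 to 144 CPM in untreated mice. The late library of mouse 581 stood apart. Mitochondrially encoded mRNAs took 15.1% of its counts, against 5.43% to 5.83% in the other late mice and 7.27% to 11.7% in untreated mice, and its 10 most abundant genes took 24.8% against 9.99% to 11.1% in the other late mice. Relative to the other 3 late mice, genes with under 1 kb of annotated exons were 1.13 higher in mouse 581 on the log2 scale (median), and genes over 8 kb were 1.61 lower. The long gene *Mki67*, a proliferation marker, shows the size of this gap, with 3.38 CPM in mouse 581 and 90.9 to 106 CPM in the other late mice (chosen after its values were seen). The level of each gene relative to its mean in untreated libraries was also ranked against exon length. This rank correlation was 0.306 to 0.363 in the other late mice, -0.537 in mouse 581 and -0.115 to 0.1398 in untreated mice. Each untreated library was set against the mean of the other untreated ones, so the groups are not scored alike. The part of gene length in the results was not tested. Values without mouse 581, or without another mouse, stand beside results that rest on it.

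**Figure D1:**
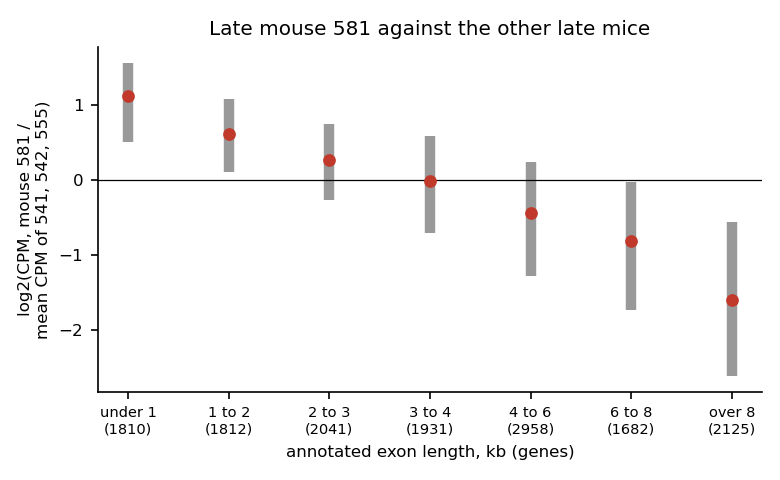
Level in late mouse 581 relative to the mean of late mice 541, 542 and 555 (vertical axis, log2 ratio of CPM) by annotated exon length of the gene (horizontal axis, kb, with the number of genes in each bin). Points are medians and bars are quartiles; the median goes down from 1.13 in genes under 1 kb to -1.61 in genes over 8 kb.

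Most genes on the lists of B cells, T cells, macrophages, mast cells and MHC class II rose in late WT colon, and most contractile genes of smooth muscle fell. Of 18419 genes tested with edgeR's quasi-likelihood test, 1303 (7.07%) were higher and 599 (3.25%) lower in late than in untreated WT colon. Both shares are the background for the counts of list members in the same fit below. A gene is called changed where its adjusted p is under 0.05 and it differs by more than 2-fold. The unadjusted p was under 0.05 for 4766 genes, and DESeq2 called 1911 of 24120 genes (7.92%) higher and 940 (3.9%) lower. The median log2 fold change of all genes was 0.05, with quartiles of -0.33 and 0.41. The levels of the 4 late mice did not overlap those of the 4 untreated mice in 1184 of the 1303 genes that rose. The same held for 576 of the 599 that fell. These genes are 6.43% and 3.13% of all genes tested. With no call required, 14% of all genes were higher and 10.1% lower without overlap. Without mouse 581, 2029 genes (10.7%) rose and 1153 (6.09%) fell, among them 1260 of the 1303 and 568 of the 599. The decreases numbered 359 without late mouse 541, 374 without late mouse 542 and 354 without untreated mouse 920.

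**Figure D2:**
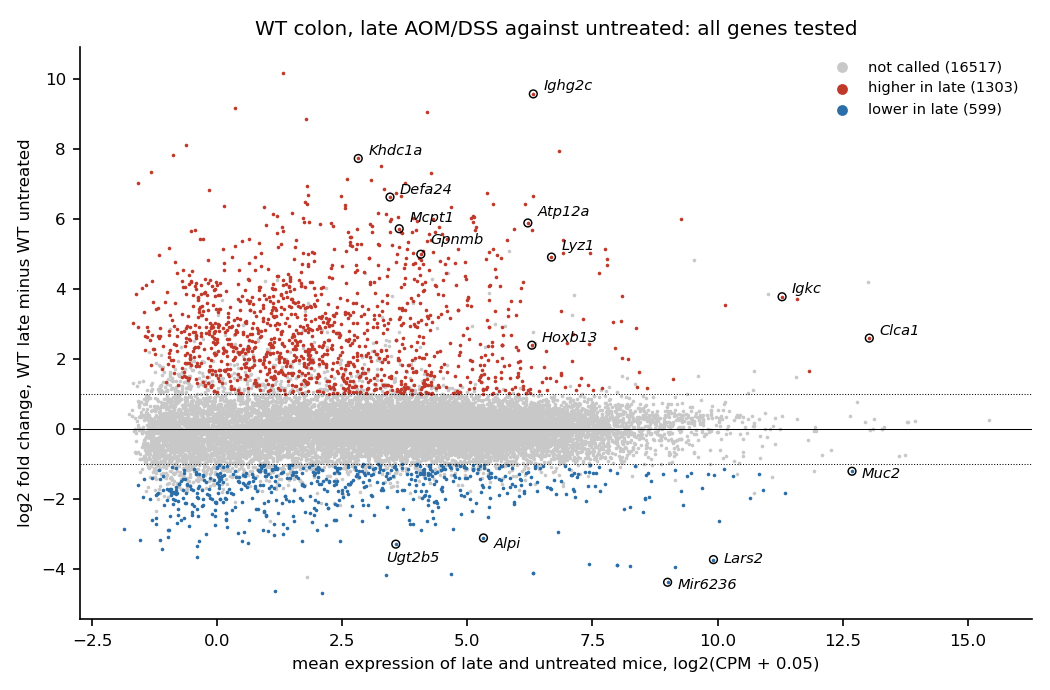
Log2 fold change of late over untreated WT colon (vertical axis) against mean level over the 8 mice (horizontal axis, log2 of CPM + 0.05) for 18419 genes. Red points are the 1303 genes that rose, blue points the 599 that fell and gray points the rest; dotted lines mark a fold change of 2, and circled genes are described in the text.

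The same comparison could be made in *Dnase1l3*-KO mice, which share no library with the WT groups. In KO colon, 2553 of 19031 genes (13.4%) rose and 1453 (7.63%) fell late against untreated. The rank correlation with exon length, taken against untreated WT libraries, differed between these KO groups too. It was 0.245 to 0.347 in late KO mice, against -0.394, -0.361, -0.12 and 0.0573 in untreated KO mice 853, 872, 915 and 852. The part of gene length in the KO counts and in their overlap with WT mice was not tested. The genes that rose in both genotypes numbered 1128, which is 86.6% of the WT list and 44.2% of the KO list, and 454 fell in both, 75.8% of the WT list and 31.2% of the KO list. Only 2 genes that rose in WT mice fell in KO mice, and 0 went the other way. No gene of 19668 had a treatment effect that differed between the genotypes after adjustment in edgeR's interaction test, 1542 reached an unadjusted p under 0.05, and with DESeq2 there were 9 higher and 24 lower interactions. Without late mouse 542 edgeR called 1 higher and 2 lower. In KO colon 15 of 16 B cell genes, 11 of 12 MHC class II genes and 9 of 10 mast cell genes rose, and 14 of 14 contractile genes fell.

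The 12 largest increases were fixed by a rule on size and on groups that do not overlap, which leaves out predicted genes, pseudogenes and all immunoglobulin and T cell receptor genes, constant regions included. *Casp14*, a caspase of cornifying keratinocytes, had 3.94, 7.66, 1.73 and 6.22 CPM in late mice and 0 in each untreated mouse, at least 177-fold higher with the untreated group set at a floor of 3 counts. *Cdkn2a*, which encodes the cell cycle inhibitors p16INK4a and ARF, had 1.01, 3.44, 4.12 and 1.19 CPM in late mice and no count in untreated mice, at least 87.8-fold higher. Its levels after 1 cycle were 0.0465 to 0.101 CPM, and 7.37 to 14.7 CPM in WT tumors, so that late colon lay between the early stage and the tumors. *Cma2*, a mast cell chymase, was 0 in untreated mice too and 1.13, 0.976, 1.25 and 1.39 CPM in late mice, at least 39.2-fold higher. The neighbors *Khdc1a* and *Khdc1c* on chromosome 1 rose together. *Khdc1a* had 8.34, 14.9, 15.95 and 16.6 CPM in late mice against 0, 0.0505, 0.0448 and 0.125 CPM in untreated mice (log2 fold change 7.72 ± 0.52, adjusted p = 6.5e-04), and *Khdc1c* had 3.83, 7.23, 8.07 and 7.79 CPM against 1 count in 4 untreated mice, a ratio of 712-fold (95% interval 127 to 28146) for counting error alone.

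The other genes of this set were of immune and epithelial kinds. *Alox15*, a lipoxygenase of macrophages and eosinophils, had 6.54, 5.09, 10.8 and 4.93 CPM in late mice against 0.0873, 0, 0.0448 and 0.0937 CPM in untreated mice (log2 fold change 6.69 ± 0.54, adjusted p = 6.5e-04). The proteases *Prss56* and *Tmprss13* had 0.8699 to 3.32 and 1.07 to 2.58 CPM in late mice against 1 and 2 counts in all untreated mice, ratios of 139-fold (95% interval 24.7 to 5526) and 111-fold (95% interval 30.5 to 921). These intervals are wide because the untreated counts are so low. *Cr2*, *Defa24* and *Retnlg*, also of this set, belong to B cells, Paneth cells and neutrophils and are described with them.

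**Figure D3:**
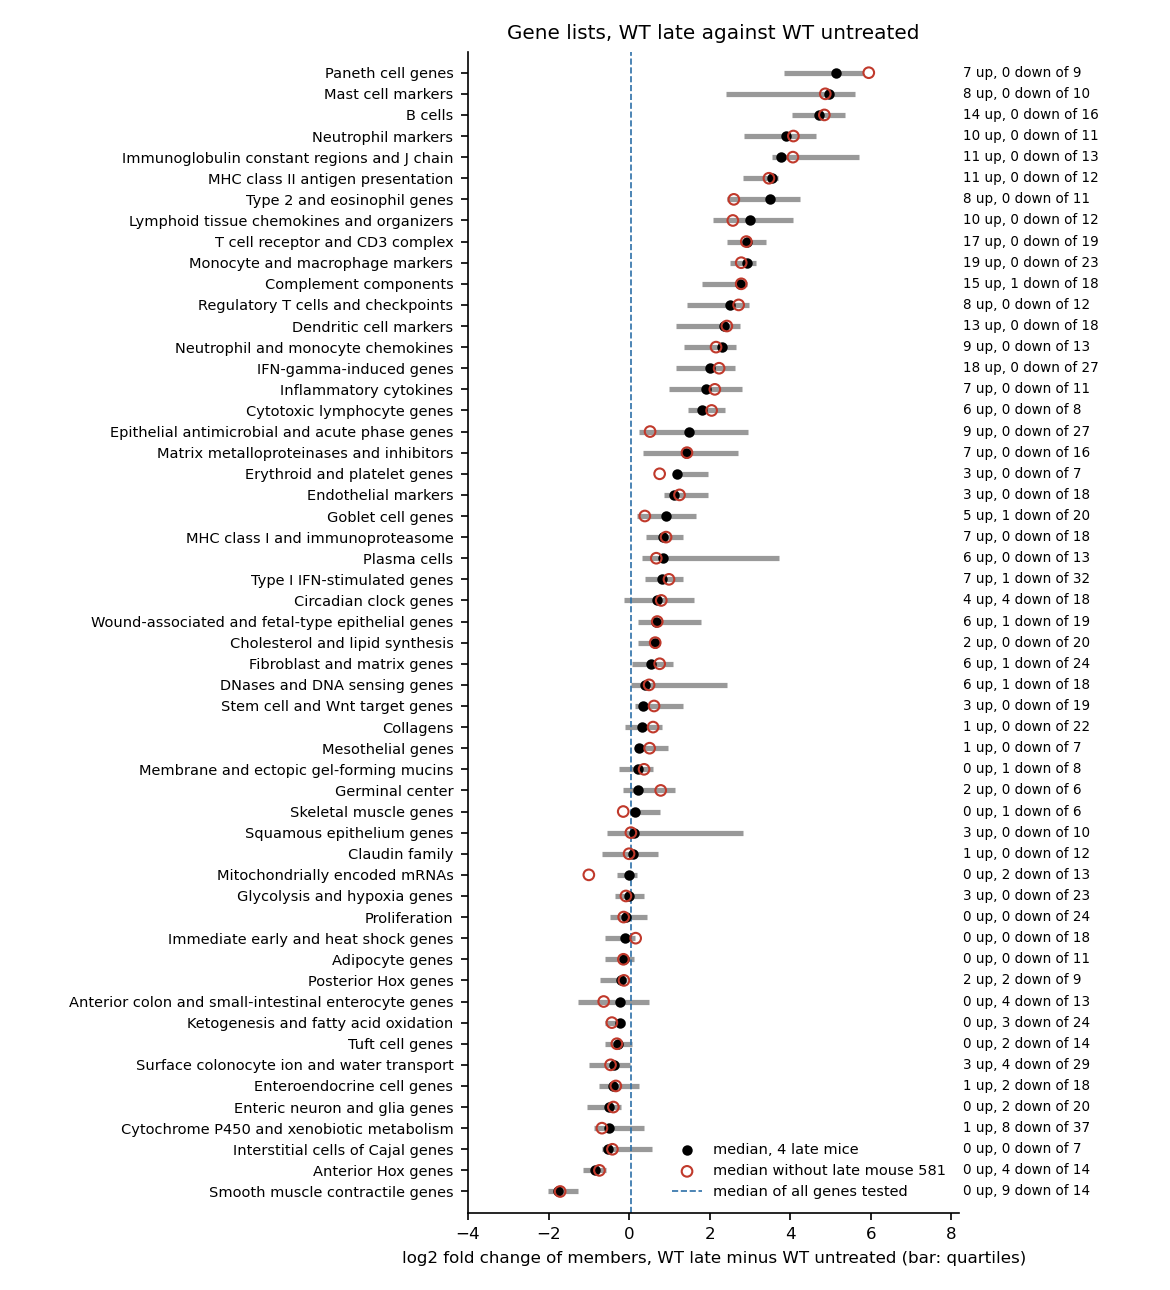
Log2 fold change of late over untreated WT colon (horizontal axis) for the gene lists with at least 6 genes tested (vertical axis). Black points are medians over the members tested, bars quartiles, open red circles medians without late mouse 581, and the dashed line the median of all genes (0.05); numbers at the right count members that rose and fell.

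Most B lineage genes rose. Of 16 B cell genes, 14 rose and 0 fell, at a median log2 fold change of 4.71 (all genes 0.05; background 7.07% rising). *Cd79a*, a chain of the B cell receptor, had 18.6, 38.2, 18.01 and 16.5 CPM in late mice against 0.349, 0.757, 0.672 and 1.41 CPM in untreated mice (log2 fold change 4.78 ± 0.48, adjusted p = 0.001), with all late mice far above all untreated mice. *Ms4a1* (CD20) had 11.3, 27.4, 5.59 and 9.64 CPM against 0.262, 0.202, 0.134 and 0.375 CPM (5.705 ± 0.60, adjusted p = 0.0011). *Cr2*, a complement receptor of B cells and follicular dendritic cells, had 1.63, 15.8, 3.38 and 6.297 CPM against 0.0437, 0, 0 and 0.125 CPM (6.94 ± 1.01, adjusted p = 0.0032), highest in mouse 541, as were *Cd79a* and *Ms4a1*.

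Of 12 genes for lymphoid tissue chemokines and organizers, 10 rose and 0 fell, with a median of 2.99. *Cxcl13*, the chemokine that draws B cells into follicles, had 12.96, 27.8, 8.304 and 13.6 CPM in late mice against 0.917, 1.16, 0.627 and 0.656 CPM in untreated mice (log2 fold change 4.203 ± 0.43, adjusted p = 0.001). *Ccr7*, the receptor by which lymphocytes and dendritic cells enter lymphoid tissue, had 2.54, 5.26, 4.39 and 3.79 CPM against 0.262, 0.0505, 0.224 and 0.312 CPM (4.14 ± 0.43, adjusted p = 0.001), and *Ltb* (lymphotoxin beta) rose by 3.58 on the log2 scale. Germinal center genes moved less as a list: 2 of 6 rose (*Gcsam* and *S1pr2*), with a median of 0.21 (0.78 without mouse 581; 1 without mouse 920 or 541).

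Immunoglobulin transcripts took 1.82 ± 0.841% of counts in late mice and 0.103 ± 0.0539% in untreated mice (SD, n = 4 each; exact two-sided permutation test, p = 0.029), and 11 of 13 constant region and J chain genes rose. The light chain *Igkc* had 5858, 5311, 4538 and 2987 CPM in late mice against 282, 239.9, 215 and 609 CPM in untreated mice (log2 fold change 3.78 ± 0.46, adjusted p = 0.0016). *Jchain*, which joins IgA and IgM into polymers, had 3326, 2158, 1736 and 1194 CPM against 178, 120.3, 122 and 293 CPM (3.55 ± 0.46, adjusted p = 0.0021). *Ighm* and *Ighd*, the heavy chains of naive B cells, rose by 3.67 and 5.13 on the log2 scale.

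The IgG subclasses differed from these in how unevenly the late mice carried them. *Ighg2c*, the heavy chain of an IgG subclass induced by IFN-γ in C57BL/6 mice, had 6.08, 181, 329 and 121 CPM in late mice against 0.175, 0.151, 0.134 and 0.312 CPM in untreated mice (log2 fold change 9.57 ± 1.23, adjusted p = 0.002). After 1 cycle the range was 0.937 to 7.77 CPM, and in WT tumors 5.602 to 62.7 CPM. *Ighg2b* had 17.7, 340.3, 393 and 154 CPM against 0.655, 0.505, 0.313 and 1.97 CPM (7.95 ± 1.10, adjusted p = 0.0027; this gene and the next were chosen after their values were seen). *Igha*, the heavy chain of mucosal IgA, had 886, 9577, 7458 and 4918 CPM against 323, 323, 285 and 757 CPM (3.72 ± 0.72, adjusted p = 0.01). Mouse 581 was the lowest late mouse for all 3 of these heavy chains, yet the highest for *Igkc* and *Jchain*, and still lay above every untreated mouse in each of the 5.

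Of 13 plasma cell genes, 6 rose and 0 fell, with a median of 0.83. *Tnfrsf17* (BCMA), a survival receptor of plasma cells, had 8.51, 5.54, 2.99 and 3.01 CPM in late mice against 0.306, 0.202, 0.134 and 0.2499 CPM in untreated mice (log2 fold change 4.43 ± 0.49, adjusted p = 0.0012), and *Tnfrsf13b* (TACI) rose by 3.73 on the log2 scale. *Irf4*, a transcription factor of plasma cells and activated lymphocytes, had 12.3, 22.6, 16.6 and 11.3 CPM against 0.699, 0.353, 0.358 and 1.97 CPM (4.14 ± 0.57, adjusted p = 0.0027).

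MHC class II genes rose almost without exception: 11 of 12 were higher and 0 lower (median log2 fold change 3.55). Their proteins present peptides to CD4+ T cells, in colon on B cells, macrophages and dendritic cells and, under IFN-γ, on epithelium. Their transcription depends on CIITA, which is recruited by factors bound to a pair of promoter elements, the X box and the Y box. *H2-Aa* had 625, 637, 367 and 399 CPM in late mice against 40.96, 22.97, 25.1 and 55.7 CPM in untreated mice (log2 fold change 3.79 ± 0.38, adjusted p = 0.001). *H2-Eb1* had 294, 383, 239.6 and 233 CPM against 35.8, 21.6, 22.7 and 46.9 CPM (3.16 ± 0.32, adjusted p = 0.001), and *H2-Ab1* rose by 2.72 on the log2 scale. The peptide loading gene *H2-DMb1* had 30.7, 65.1, 40.3 and 39.4 CPM against 4.41, 3.03, 2.15 and 5.53 CPM (3.505 ± 0.36, adjusted p = 0.001). *H2-Ob*, which restrains H2-DM mainly in B cells, had 10.4, 11.6, 4.12 and 6.15 CPM against 0.306, 0.404, 0.493 and 0.656 CPM (4.07 ± 0.43, adjusted p = 0.0011). In all 5 of these genes the late and untreated mice did not overlap. The same held for 1184 of the 1303 genes called higher and, with no call required, 14% of all genes were higher without overlap, so it adds little to the calls.

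Because these genes rose together, their promoters (250 bases before to 50 after the start, RefSeq on GRCm38.p6) were searched on both strands for the Y box letters ATTGG. Of 9 listed genes with a promoter entry, 8 held them, against 37.4% of all 32851 promoters and 41.1% of all 27025 genes with one. Those of 4 genes described above are shown, with the matches in capitals and 20 bases to each side.
H2-Eb1, chr17:34305788-34305856, + strand: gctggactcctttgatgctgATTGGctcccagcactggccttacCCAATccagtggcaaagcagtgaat
H2-DMb1, chr17:34153110-34153154, + strand: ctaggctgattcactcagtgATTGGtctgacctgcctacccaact
H2-Ob, chr17:34238828-34238872, + strand: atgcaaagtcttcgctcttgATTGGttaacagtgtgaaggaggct
H2-Aa, chr17:34287847-34287891, - strand: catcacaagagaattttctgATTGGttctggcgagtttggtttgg
The ATTGG printed first in each starts 59, 61, 57 and 48 bases before the start site. CCAAT in *H2-Eb1* is a second match to the Y box letters, on the opposite strand. A match describes letters, not binding.

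T cell genes rose with the B lineage. Of 19 genes of the T cell receptor and CD3 complex, 17 rose and 0 fell, with a median log2 fold change of 2.93. *Cd28*, the costimulatory receptor of T cells, had 5.58, 6.53, 4.03 and 4.45 CPM in late mice against 0.393, 0.252, 0.134 and 0.2499 CPM in untreated mice (log2 fold change 4.28 ± 0.35, adjusted p = 6.5e-04), and the receptor constant region *Trac* had 2.76, 5.26, 3.44 and 3.72 CPM against 0.4804, 0.353, 0.179 and 0.375 CPM (3.41 ± 0.34, adjusted p = 0.001). Among 12 genes of regulatory T cells and checkpoints 8 rose: *Ctla4* had 0.732, 1.803, 2.15 and 1.47 CPM against 0, 0.101, 0.179 and 0.125 CPM (3.84 ± 0.58, adjusted p = 0.0038), and *Icos* and *Pdcd1* rose by 2.88 and 3.24 on the log2 scale. Of 16 cytotoxic lymphocyte genes, 8 had counts enough to be tested and 6 rose. *Itgae* (CD103), an integrin that holds lymphocytes in the epithelium, had 4.0002, 8.97, 6.24 and 6.297 CPM against 0.961, 1.16, 0.672 and 1.19 CPM (2.65 ± 0.31, adjusted p = 0.0014), while *Gzmb* (granzyme B) reached only 0.6197 to 2.39 CPM in late mice against 0.151 to 0.358 CPM in untreated mice (2.48 ± 0.44, adjusted p = 0.0077).

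Genes induced by IFN-γ and by type I IFN were examined as separate lists, which share part of their regulation. Of 27 IFN-γ-induced genes, 18 rose and 0 fell, at a median log2 fold change of 2.01 (11 without mouse 920). Of 32 type I IFN-stimulated genes, 7 rose and 1 fell, with a median of 0.83 (3 without mouse 918, 4 without 920 or 541 and 14 without 581). The difference between the lists was not tested. *Ubd*, a ubiquitin-like modifier, had 7.21, 17.9, 15.98 and 10.95 CPM in late mice against 0.349, 0.808, 0.448 and 0.406 CPM in untreated mice (log2 fold change 4.68 ± 0.40, adjusted p = 6.5e-04). *Cxcl9*, a chemokine for activated T cells, had 4.96, 16.8, 21.4 and 8.22 CPM against 0.917, 0.505, 0.269 and 0.531 CPM (4.49 ± 0.56, adjusted p = 0.0017), and *Zbp1*, a nucleic acid sensor of the cell death machinery, had 38.4, 55.5, 50.4 and 42.4 CPM against 8.95, 8.68, 8.46 and 15.9 CPM (2.12 ± 0.26, adjusted p = 0.0016). On the type I list *Ifi44* had 2.48, 5.41, 2.99 and 3.03 CPM against 0.742, 0.252, 0.179 and 0.469 CPM (3.03 ± 0.45, adjusted p = 0.0034).

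*Irf7*, the transcription factor that amplifies type I IFN responses, was the 1 gene of that list to fall. It had 61.7, 72.6, 51.3 and 66.4 CPM in late mice against 222, 148, 168 and 151 CPM in untreated mice (log2 fold change -1.47 ± 0.20, adjusted p = 0.0025), so that every late mouse was below every untreated mouse. After 1 cycle its level was 47.6 to 69.5 CPM, and in KO mice the log2 fold change late against untreated was -0.81 (adjusted p = 0.039).

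A set of 4 GTPases of the IFN-γ list, *Gbp2*, *Gbp3*, *Igtp* and *Irgm1*, which act on the vacuoles of intracellular microbes, rose by 1.84, 2.001, 2.08 and 1.099 on the log2 scale (adjusted p = 0.028, 0.009, 0.0071 and 0.013). Their promoters were searched for GAAANNGAA, core letters of the IFN-stimulated response element (ISRE) read by STAT and IRF factors. Of 18 listed genes with a promoter entry, 12 held it, against 8.56% of all promoters and 9.76% of genes with one. The matches, on either strand, are in capitals.
Gbp2, chr3:142620585-142620633, + strand: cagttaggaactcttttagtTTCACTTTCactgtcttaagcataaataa
Gbp3, chr3:142559980-142560034, + strand: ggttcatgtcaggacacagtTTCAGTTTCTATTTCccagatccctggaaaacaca
Igtp, chr11:58199502-58199550, + strand: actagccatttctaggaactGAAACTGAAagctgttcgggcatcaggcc
Irgm1, chr11:48871416-48871470, - strand: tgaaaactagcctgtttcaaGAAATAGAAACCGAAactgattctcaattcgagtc
*Gbp3* and *Irgm1* hold a pair of overlapping matches, and a second *Gbp3* promoter entry holds 0. In mouse 581 *Gbp2* was at 16.5 CPM, inside the untreated range of 13.9 to 22.1 CPM, against 81.02, 91.1 and 65.1 CPM in the other late mice. *Gbp2* was not called without any 1 of mice 851, 918, 920, 927, 541, 542 or 555, with an adjusted p of 0.057 to 0.092, and *Irgm1* was not called without any 1 of mice 920 or 542, with an adjusted p of 0.038 to 0.054 and log2 fold changes of 0.97 to 1.04.

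Of 18 MHC class I and immunoproteasome genes, 7 rose and 0 fell (median 0.85; 4 without mouse 851 or 541). *Psmb8*, a catalytic subunit of the immunoproteasome, had 54.5, 56.3, 45.1 and 38.6 CPM in late mice against 7.99, 6.41, 7.88 and 13.8 CPM in untreated mice (log2 fold change 2.41 ± 0.28, adjusted p = 0.0014), and the peptide transporter *Tap1* rose by 1.96 on the log2 scale. *B2m*, the invariant light chain of class I molecules, had 1092, 869, 701 and 579.9 CPM against 294, 283, 292 and 317 CPM (1.43 ± 0.25, adjusted p = 0.0071).

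Most members of the macrophage and dendritic cell lists rose. Of 23 monocyte and macrophage markers, 19 rose and 0 fell (median log2 fold change 2.92), and of 18 dendritic cell markers, 13 rose (median 2.37). *Gpnmb*, a glycoprotein of lipid-laden macrophages, was even across late mice, with 30.6, 31.1, 30.9 and 37.2 CPM in late mice against 1.004, 0.909, 0.537 and 1.4996 CPM in untreated mice (log2 fold change 4.99 ± 0.31, adjusted p = 6.5e-04). *Lyz2*, the lysozyme of macrophages and neutrophils, had 349, 583, 519.9 and 483 CPM against 64.9, 45.5, 37.1 and 73.98 CPM (3.0997 ± 0.29, adjusted p = 8.0e-04). *Mrc1*, the mannose receptor of resident macrophages, had 18.4, 37.8, 39.2 and 32.1 CPM against 4.67, 2.78, 2.33 and 5.62 CPM (3.01 ± 0.36, adjusted p = 0.0015). *Itgax* (CD11c) rose by 2.87 and *Xcr1*, a marker of cross-presenting dendritic cells, by 2.77 on the log2 scale.

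Complement genes rose in parallel, 15 of 18 with 1 lower and a median of 2.76. *C1qa* and *C1qc*, which macrophages make and which share the C1q complex, had 114, 98.9, 78.9 and 74.8 CPM and 86.8, 84.3, 66.6 and 66.5 CPM in late mice, against 12.8, 7.93, 8.69 and 18.3 CPM and 12.8, 7.47, 5.64 and 13.6 CPM in untreated mice (log2 fold change 2.92 for both). *Cfp* (properdin), which stabilizes the convertase of the alternative pathway, rose as well, by 2.4997 on the log2 scale.

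Most neutrophil markers tested rose, and their levels were uneven between late mice. Of 23 listed neutrophil markers, 11 were tested and 10 rose (median 3.89), and without mouse 581, 15 of 15 tested rose. Members nearly absent from untreated mice pass the filter on low counts only through late mice, so these shares lean toward genes that rose. *Retnlg* had 9.07, 1.06, 3.55 and 1.09 CPM in late mice against 0, 0.0505, 0.0448 and 0.0625 CPM in untreated mice (log2 fold change 6.33 ± 1.06, adjusted p = 0.0059), and *S100a8*, an antimicrobial calcium-binding protein, had 1.75, 1.59, 10.7 and 1.04 CPM against 0.131, 0.151, 0.134 and 0.187 CPM (4.56 ± 0.90, adjusted p = 0.011). *Ly6g* had 262, 78.6, 80.6 and 99.3 CPM against 3.58, 3.13, 6.13 and 15.4 CPM (4.19 ± 0.68, adjusted p = 0.005). Mouse 542 was highest for *S100a8* and mouse 581 for *Retnlg* and *Ly6g*. *Ly6g* was far more abundant than *S100a8* and *Retnlg* in each late mouse, and which cells made it was not tested.

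Chemokines and cytokines showed the same spread. Of 19 listed neutrophil and monocyte chemokines, 13 were tested and 9 rose. *Ccl8*, a monocyte chemokine, had 75.9, 26.4, 27.8 and 21.6 CPM in late mice against 1.004, 0.505, 0.493 and 1.4996 CPM in untreated mice (log2 fold change 5.398 ± 0.60, adjusted p = 0.0012), and *Cxcl5*, an epithelial chemokine for neutrophils, had 2.59, 3.48, 16.6 and 4.22 CPM against 0.131, 0.252, 0.0896 and 0.312 CPM (5.01 ± 0.76, adjusted p = 0.0038). Of 22 listed inflammatory cytokine genes, 11 were tested and 7 rose (11 of 14 tested without mouse 581). The shares of both lists lean toward genes that rose, as for neutrophil markers. *Il1b* had 2.14, 5.69, 23.8 and 6.02 CPM against 0.218, 0.101, 0.0896 and 0.187 CPM (5.88 ± 0.85, adjusted p = 0.0031), and *Il33*, an alarmin of epithelium and stroma, had 8.17, 9.02, 21.5 and 9.46 CPM against 1.48, 0.707, 0.851 and 0.844 CPM (3.603 ± 0.41, adjusted p = 0.0013), both highest in mouse 542. The antagonist *Il1rn*, which blocks the IL-1 receptor, had 148, 85.5, 92.3 and 83.3 CPM against 18.04, 31.5, 25.8 and 31.1 CPM (1.93 ± 0.28, adjusted p = 0.0034), and *Il18bp*, which binds IL-18, rose by 1.91 on the log2 scale. After 1 cycle *Il1b* ranged from 2.65 to 53.5 CPM, a wider spread than between the late mice.

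Mast cell proteases stood out by how far they separated the groups. Of 10 mast cell markers tested, 8 rose and 0 fell, with a median log2 fold change of 4.96. *Mcpt1* and *Mcpt2*, the proteases of mucosal mast cells in mice, had 28.1, 18.9, 30.1 and 20.1 CPM and 18.1, 11.2, 15.9 and 11.5 CPM in late mice against 0.175, 0.555, 0.358 and 0.687 CPM and 0.218, 0.454, 0.134 and 0.594 CPM in untreated mice (log2 fold changes 5.72 ± 0.41, adjusted p = 6.5e-04, and 5.27 ± 0.44, adjusted p = 6.5e-04). After 1 cycle the ranges were 2.25 to 5.22 CPM for *Mcpt1* and 0.885 to 2.78 CPM for *Mcpt2*, between the other stages, and in WT tumors 31.9 to 90.3 CPM and 21.99 to 66.2 CPM.

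*Kit*, the stem cell factor receptor, which interstitial cells of Cajal also carry, was the most abundant gene of this list in each mouse and was not called, with 31.4, 53.5, 40.8 and 51.01 CPM in late mice against 73.6, 58.9, 52.7 and 63.6 CPM in untreated mice (log2 fold change -0.52, adjusted p = 0.14; chosen after its values were seen). *Cpa3*, the mast cell carboxypeptidase, had 1.41, 1.697, 3.05 and 1.85 CPM in late mice against 0.0437, 0.101, 0 and 0.0625 CPM in untreated mice (log2 fold change 5.15 ± 0.53, adjusted p = 0.001). *Fcer1a*, the IgE-binding chain of the high-affinity receptor, had 0.845, 0.382, 1.05 and 0.506 CPM against 0 in each untreated mouse, at least 21.2-fold higher. *Mcpt4*, a chymase of connective tissue mast cells, had 1.13, 0.594, 1.73 and 0.455 CPM against 3 counts in all untreated mice, a ratio of 29.8-fold (95% interval 9.97 to 147).

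Most type 2 and eosinophil genes tested rose alongside. Of 19 listed, 11 were tested, 8 rose and 0 fell, with a median of 3.51 (2.60 without mouse 581). The number that rose was 4 without mouse 851, 920 or 927 and 5 without 918. This share leans toward genes that rose, as for neutrophil markers. *Prg2*, the major basic protein of eosinophil granules, had 1.75, 2.48, 2.36 and 1.796 CPM in late mice against 0.218, 0.151, 0.0448 and 0.281 CPM in untreated mice (log2 fold change 3.49 ± 0.41, adjusted p = 0.0014). *Ccl11* (eotaxin) had 50.3, 18.6, 21.2 and 13.1 CPM against 3.41, 1.46, 3.18 and 3.31 CPM (3.17 ± 0.49, adjusted p = 0.0042). *Ear2*, an eosinophil ribonuclease, had 13.1, 1.42, 1.43 and 1.19 CPM against 0.306, 0.101, 0.134 and 0.2499 CPM (4.36 ± 1.02, adjusted p = 0.023). Mouse 581 was far above the others for *Ear2*, and without it the log2 fold change was 2.65 (adjusted p = 3.3e-04). The gene was not called without any 1 of mice 851, 918, 920 or 927, with an adjusted p of 0.064 to 0.081.

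Of 13 listed genes of Paneth cells, which the mouse colon normally lacks, 9 were tested and 7 rose, with a median log2 fold change of 5.14. This share also leans toward genes that rose, because members nearly absent from untreated mice are tested only through late mice. *Lyz1*, the lysozyme of Paneth cells, had 48.1, 133, 534 and 79.1 CPM in late mice against 7.34, 5.45, 5.24 and 7.81 CPM in untreated mice (log2 fold change 4.91 ± 0.78, adjusted p = 0.0046). *Mmp7*, the protease that activates their defensins in mice, had 8.51, 43.5, 154 and 12.1 CPM against 1.48, 2.47, 1.25 and 0.906 CPM (5.14 ± 0.99, adjusted p = 0.01). *Defa24*, an alpha-defensin, had 1.75, 13.96, 66.4 and 4.27 CPM against 0.0873, 0.0505, 0.358 and 0.312 CPM (6.62 ± 1.30, adjusted p = 0.011). Alpha-defensin genes are near-identical copies, so how reads were divided between *Defa24*, *Defa17* and *Defa3* is uncertain, and neither of these copies was called without mouse 851 (adjusted p = 0.053 each).

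*Ang4*, an antimicrobial ribonuclease, and *Itln1*, an intelectin that goblet cells also make, were tested and not called (log2 fold changes 3.85 and 2.76, adjusted p = 0.089 and 0.15; chosen after their values were seen). *Ang4* had 12668, 1547, 1066 and 209 CPM in late mice against 314, 43.8, 179.9 and 554 CPM in untreated mice, so that the groups overlapped and mouse 581 was highest.

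Mouse 542 had by far the highest levels of *Lyz1*, *Mmp7* and *Defa24*, and WT tumors were higher still: 938 to 1407 CPM of *Lyz1*, 267 to 403 CPM of *Mmp7* and 110.1 to 290.1 CPM of *Defa24*. After 1 cycle the levels were 33.2 to 39.6, 1.12 to 5.95 and 0.1396 to 0.329 CPM. Without mouse 542 the median of the Paneth list was 3.78, with 7 of 9 genes higher.

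Several Wnt target genes were likewise highest in mouse 542. Of 19 stem cell and Wnt target genes, 3 rose and 0 fell, with a median of 0.34 (7 without mouse 581). *Notum*, a secreted Wnt inhibitor, had 1.92, 3.39, 19.03 and 4.198 CPM in late mice against 0.568, 0.353, 0.403 and 0.625 CPM in untreated mice (log2 fold change 3.82 ± 0.75, adjusted p = 0.011). *Wif1*, another secreted inhibitor, had 10.3, 10.3, 57.7 and 17.3 CPM against 1.57, 1.57, 1.25 and 1.19 CPM (4.07 ± 0.62, adjusted p = 0.0038), and *Ascl2*, a stem cell transcription factor, had 6.197, 4.31, 7.11 and 3.84 CPM against 2.27, 2.22, 2.91 and 2.53 CPM (1.09 ± 0.26, adjusted p = 0.027; not called without any 1 of mice 851, 918, 920, 927, 581 or 542, with an adjusted p of 0.009 to 0.083 and log2 fold changes of 0.93 to 1.16). *Prox1*, a transcription factor of Wnt-driven adenomas, had 0.958, 10.7, 48.4 and 12.1 CPM against 3.97, 4.49, 4.299 and 3.78 CPM and was not called (2.09 ± 0.85, adjusted p = 0.15; without mouse 581, 2.47, adjusted p = 0.0032).

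In WT tumors the levels were 71.8 to 169 CPM of *Notum* and 191 to 488 CPM of *Wif1*, above every late colon, and after 1 cycle they were 0.127 to 0.326 and 1.84 to 2.75 CPM. Without mouse 542 the log2 fold changes were 2.66 for *Notum* (adjusted p = 0.0053) and 3.15 for *Wif1* (adjusted p = 0.0024). *Lgr5*, the marker of crypt base stem cells (chosen after its values were seen), had 1.803, 6.94, 23.99 and 4.96 CPM in late mice against 3.01, 3.89, 2.24 and 3.69 CPM in untreated mice and was not called (1.53 ± 0.67, adjusted p = 0.19; without mouse 581, 1.84, adjusted p = 0.014). The part of tumor tissue in these values was not tested.

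**Figure D4:**
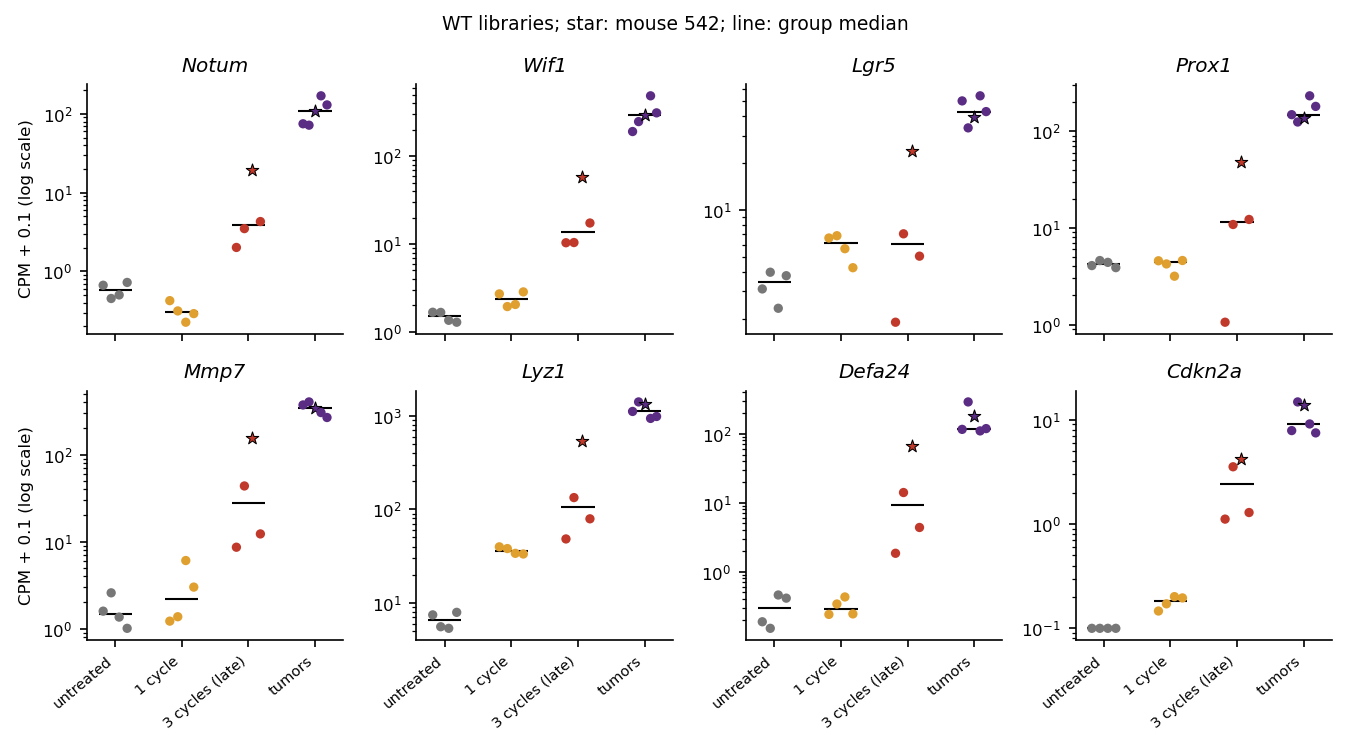
Levels (vertical axes, CPM + 0.1, log scale) of 8 genes in WT libraries that were untreated, after 1 cycle, after 3 cycles (late) and from tumors (horizontal axes). Each point is 1 library, the line is the group median and the star is mouse 542, whose late colon held 66.4 CPM of *Defa24* against 1.75, 13.96 and 4.27 CPM in the other late mice.

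A minority of the genes of damaged or squamous epithelium rose. Of 19 wound-associated and fetal-type epithelial genes, 6 rose and 1 fell, with a median of 0.67. *Clu*, a marker of regenerating crypt cells, had 21.5, 160.4, 184 and 87.3 CPM in late mice against 12.1, 10.8, 9.94 and 13.4 CPM in untreated mice (log2 fold change 3.26 ± 0.57, adjusted p = 0.0069). *Ly6a* (Sca-1) had 686, 404, 463 and 345 CPM against 104, 104, 102 and 163 CPM (1.99 ± 0.30, adjusted p = 0.0035). Of 25 listed squamous epithelium genes, 10 were tested and 3 rose (5 of 11 tested without mouse 581). *Krt14*, a basal keratin, had 4.45, 4.92, 9.59 and 5.61 CPM against 0.961, 0.303, 0.403 and 0.4999 CPM (3.47 ± 0.41, adjusted p = 0.0015), and *Krt16* had 0.6197 to 1.08 CPM in late mice against 2 counts in all untreated mice, a ratio of 46.9-fold (95% interval 12.7 to 391). Of 16 matrix metalloproteinases and inhibitors 7 rose (4 without mouse 918 or 920), and *Mmp12*, the macrophage elastase, had 8.51, 6.34, 30.2 and 4.48 CPM against 0.131, 0.151, 0.134 and 0.594 CPM (5.47 ± 0.83, adjusted p = 0.0037).

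Most goblet cell genes were not called. Of 20, 5 rose and 1 fell (background 7.07% rising and 3.25% falling), with a median of 0.91 (0.39 without mouse 581). The number that rose was 3 without mouse 920, and the number that fell was 2 without mouse 581 and 0 without any other 1. The secreted goblet cell proteins *Clca1* and *Fcgbp* had 19250.5, 19027, 11514 and 7897 CPM and 4593, 7627, 5239.6 and 4668 CPM in late mice against 2493, 1425, 1669 and 3849 CPM and 1509.6, 1092, 1432 and 2883 CPM in untreated mice (log2 fold changes 2.598 ± 0.51, adjusted p = 0.011, and 1.65 ± 0.39, adjusted p = 0.024). *Clca1* was not called without mouse 920, with an adjusted p of 0.051 and a log2 fold change of 2.45, and *Fcgbp* was not called without any 1 of mice 851, 918, 920, 541 or 542, with an adjusted p of 0.053 to 0.095. *Muc2*, the gel-forming mucin of the colon, had 4464, 4209, 4152 and 3357 CPM against 8738, 11500.3, 8758 and 7641 CPM (-1.1997 ± 0.32, adjusted p = 0.04), and was not called without any 1 of mice 851, 918, 920, 927, 541, 542 or 555, with an adjusted p of 0.073 to 0.12. In all 4 late mice the transcripts of these 2 proteins lay above, and those of *Muc2* below, the whole untreated range. *Best2*, a chloride and bicarbonate channel of colonic goblet cells, had 34.9, 36.4, 17.1 and 31.5 CPM against 1.14, 1.82, 1.21 and 2.12 CPM (4.22 ± 0.34, adjusted p = 6.5e-04), and the sulfotransferase *Gal3st2*, which has closely related copies, rose by 3.51 on the log2 scale.

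Genes for transport at the colon surface were split, 3 higher and 4 lower of 29 (lower: 1 without mouse 541 or 542, 2 without 918, 920, 927 or 555 and 9 without 581). The background was 7.07% rising and 3.25% falling. *Atp12a*, the proton-potassium ATPase of the distal colon, had 77.1, 125, 80.3 and 299 CPM in late mice against 1.75, 0.505, 1.39 and 5.78 CPM in untreated mice (log2 fold change 5.88 ± 0.84, adjusted p = 0.0029). *Scnn1g*, a subunit of the epithelial sodium channel, had 1.58, 4.604, 2.96 and 2.53 CPM against 0, 0.202, 0.0448 and 0.0312 CPM (5.42 ± 0.67, adjusted p = 0.0017), and *Slc37a2*, a sugar phosphate transporter, had 95.6, 31.1, 12.4 and 95.5 CPM against 2.93, 2.07, 2.51 and 3.56 CPM (4.38 ± 0.66, adjusted p = 0.0036). *Guca2a* (guanylin), a peptide that drives fluid secretion, was lower, with 1809, 519.7, 484 and 758 CPM against 2943, 3045, 3099 and 2775 CPM (-1.74 ± 0.46, adjusted p = 0.04), and was not called without any 1 of mice 851, 918, 920, 927, 541, 542 or 555, with an adjusted p of 0.083 to 0.11. *Slc51a*, a basolateral bile acid transporter, fell by 2.74 on the log2 scale (adjusted p = 0.0038).

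Some absorptive and metabolic genes fell. Of 13 anterior colon and small-intestinal enterocyte genes, 4 fell (2 without mouse 920, 541 or 542) and 0 rose (1 without mouse 581). *Alpi*, an intestinal alkaline phosphatase, had 6.54, 8.295, 11.3 and 7.74 CPM in late mice against 52.3, 90.8, 84.6 and 57.7 CPM in untreated mice (log2 fold change -3.103 ± 0.27, adjusted p = 6.5e-04). *Fabp2*, a fatty acid binding protein, had 426, 130.1, 177 and 191 CPM against 1197, 1121, 983 and 831 CPM (-2.17 ± 0.40, adjusted p = 0.0087), with mouse 581 the closest of the late mice to the untreated ones. *Npc1l1*, the cholesterol uptake transporter, was at 0.338, 0.106, 0.179 and 0.152 CPM against 1.53, 1.06, 2.24 and 0.844 CPM (-2.99 ± 0.46, adjusted p = 0.0042).

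Of 37 cytochrome P450 and xenobiotic metabolism genes, 8 fell and 1 rose (2 without mouse 581), with a median of -0.50. *Cyp2c55*, a P450 that acts on fatty acids and is prominent in mouse colon, had 500.02, 200.04, 162 and 311 CPM in late mice against 1839, 2424, 1570.2 and 1321 CPM in untreated mice (log2 fold change -2.62 ± 0.42, adjusted p = 0.0049). *Cyp2c65* had 60.7, 44.8, 45.3 and 41.1 CPM against 165, 245, 153 and 124 CPM (-1.86 ± 0.26, adjusted p = 0.0028). The glucuronosyltransferases *Ugt2b5* and *Ugt2b38* had 2.704, 1.25, 2.06 and 2.96 CPM and 0.563, 0.318, 0.508 and 0.809 CPM against 24.8, 34.4, 18.0004 and 8.34 CPM and 5.197, 6.97, 3.67 and 1.41 CPM (log2 fold changes -3.28 and -2.99). *Gsta3*, a glutathione transferase, was the 1 gene of the list that rose, by 1.79. In WT tumors *Cyp2c55* ranged from 1.22 to 8.31 CPM.

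Of 24 ketogenesis and fatty acid oxidation genes, 3 fell (5 without mouse 581) and 0 rose. *Pdk4*, a kinase that shuts off pyruvate oxidation, had 3.21, 4.18, 3.32 and 4.63 CPM in late mice against 32.8, 30.6, 21.4 and 14.4 CPM in untreated mice (log2 fold change -2.71 ± 0.29, adjusted p = 0.0012), and *Acads*, the short-chain acyl-CoA dehydrogenase used on butyrate, had 94.9, 93.5, 85.8 and 118 CPM against 189.7, 277, 229 and 210.1 CPM (-1.23 ± 0.19, adjusted p = 0.0044). Among glycolysis and hypoxia genes, 3 of 23 rose (*Pfkfb3*, *Egln3* and *Slc16a3*) and 0 fell (0 without mouse 851, 918 or 920 and 1 without 541 or 542).

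Among secretory cell types, 2 of 18 enteroendocrine genes fell (1 without mouse 851, 918, 541 or 555) and 1 rose (0 without mouse 851, 918, 920 or 541 and 2 without 542). The hormones *Sst* (somatostatin) and *Nts* (neurotensin) fell by 1.76 and 2.87 on the log2 scale, and *Nts* was not called without any 1 of mice 851, 918, 541 or 555, with an adjusted p of 0.051 to 0.065. Of 14 tuft cell genes 2 fell (1 without mouse 920, 927, 541 or 542), and one of them, the taste channel *Trpm5*, had 8.28, 8.06, 6.45 and 7.23 CPM in late mice against 13.3, 12.5, 17.6 and 19.2 CPM in untreated mice (log2 fold change -1.08 ± 0.21, adjusted p = 0.0097; not called without mouse 927, with an adjusted p of 0.031 and a log2 fold change of -0.98).

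Genes that mark position along the gut differed between the groups, which is a measured fact beside the epithelial results above. *Hoxb13* (chr11:96194316-96197447), a transcription factor of the distal colon, had 184, 116, 71.6 and 155 CPM in late mice against 13.1, 7.37, 22.9 and 55.1 CPM in untreated mice (log2 fold change 2.397 ± 0.61, adjusted p = 0.033), and *Hoxd13* had 17.4, 7.19, 1.97 and 10.7 CPM against 0.306, 0, 0.0896 and 0.906 CPM (4.69 ± 0.96, adjusted p = 0.013). *Hoxb13* was not called without any 1 of mice 851, 918, 920, 541 or 555, with an adjusted p of 0.059 to 0.1, and *Hoxd13* was not called without any 1 of mice 851 or 920, with an adjusted p of 0.051 to 0.054. Of 14 anterior Hox genes, 4 fell (2 without mouse 851, 918 or 541) and 0 rose. *Hoxb8* had 0, 0.276, 0.597 and 0.202 CPM against 3.23, 5.05, 1.34 and 1.19 CPM (-3.24 ± 0.73, adjusted p = 0.021; not called without any 1 of mice 851, 918, 541 or 555, with an adjusted p of 0.056 to 0.07), and *Hoxb6* fell by 1.73 on the log2 scale. Most genes of the posterior list did not rise, and its median was -0.19. Of 9 tested, 2 rose (0 without mouse 851 or 920, 1 without 541 or 555 and 4 of 11 tested without 542). The other members tested had negative log2 fold changes. Among these, *Hoxa11* and its antisense transcript *Hoxa11os* fell by 1.08 and 1.06, which cannot be told apart without strand (falling: 1 without mouse 851, 920, 927, 581, 541 or 555). *Hoxa11* was not called without any 1 of mice 851, 920, 581, 541 or 555, with an adjusted p of 0.0034 to 0.069 and log2 fold changes of -1.09 to -0.97. Late and untreated mice did not overlap for *Hoxb13*, *Hoxd13*, *Hoxb8* or *Hoxb6*, where 14% of all genes were higher and 10.1% lower without overlap. The sources used here describe whole colon for both groups, and the part of the colon segment sampled in these results was not tested.

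The KO mice showed these genes in another arrangement. *Hoxb13* had 123, 89.4, 67.8 and 90.95 CPM in late KO mice (527, 535, 543 and 544), against 139, 154, 127 and 4.001 CPM in untreated KO mice (852, 853, 915 and 872). *Atp12a* had 193, 69.5, 53.2 and 89.1 CPM in late KO mice against 107, 98.2, 86.99 and 0.555 CPM in untreated KO mice, and *Slc37a2* had 15.2, 22.5, 16.5 and 19.7 CPM against 148, 39.1, 122 and 1.87 CPM. Of the untreated KO mice, 872 was near untreated WT mice in these genes, and the other 3 lay near or above the late WT range. Mice 872 and 853 had the lowest correlations with exon length of the untreated KO mice (-0.361 and -0.394). The log2 fold changes in KO mice were -0.24 for *Hoxb13*, 0.41 for *Atp12a*, -2.14 for *Slc37a2* and 1.35 for *Best2*, and their interactions with genotype had adjusted p values of 0.56, 0.56, 0.29 and 0.56. For other genes all 4 untreated KO mice were low. *Khdc1a* had 32.9, 20.6, 15.6 and 14.4 CPM in late KO mice against 0.611, 0.108, 0.725 and 0.117 CPM in untreated KO mice, *Mcpt1* had 27.5, 24.8, 13.6 and 22.96 CPM against 0.345, 0.362, 0.337 and 0.3797 CPM, and *Igkc* had 5836, 6251, 2316 and 4595 CPM against 339.6, 541, 344 and 159.9 CPM. *Casp14* varied between untreated KO mice, at 10.8, 4.096, 2.63 and 4.73 CPM in late KO mice and 6.19, 0.542, 5.85 and 0 CPM in untreated KO mice.

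**Figure D5:**
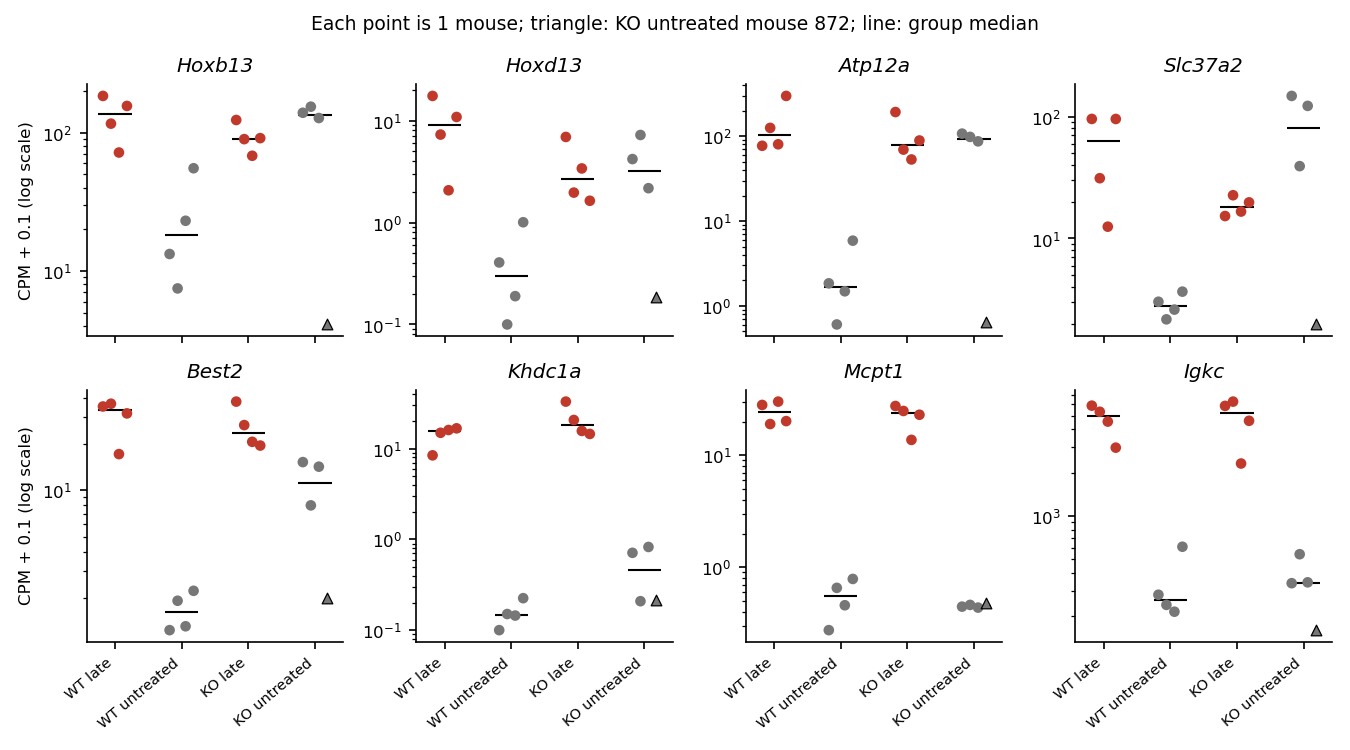
Levels (vertical axes, CPM + 0.1, log scale) of 8 genes in late and untreated mice of both genotypes (horizontal axes). Each point is 1 mouse, the line is the group median and the triangle is untreated KO mouse 872; the upper row and *Best2* show low levels in untreated WT mice and mouse 872 and higher levels in the other untreated KO mice, whereas *Khdc1a*, *Mcpt1* and *Igkc* were low in all 8 untreated mice.

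No other list had as many members that fell as the contractile genes of smooth muscle. Of 14 contractile genes, 9 fell and 0 rose, at a median log2 fold change of -1.75 (background 3.25% falling), and all 14 fell without mouse 581. *Des* (desmin) had 435, 739.9, 682 and 793 CPM in late mice against 3038, 1448, 2912 and 2743 CPM in untreated mice (log2 fold change -1.97 ± 0.33, adjusted p = 0.0057). *Mylk*, the myosin light chain kinase, had 212, 267, 272 and 380.01 CPM against 1137, 609.6, 1025 and 1013 CPM (-1.77 ± 0.28, adjusted p = 0.0042), and *Smtn* (smoothelin) had 39.2, 63.4, 65.4 and 96.4 CPM against 305, 153, 308 and 298 CPM (-2.04 ± 0.32, adjusted p = 0.0045). Untreated mouse 918 was the closest untreated mouse to the late mice for all 3. *Myh11*, the smooth muscle myosin, had 70.03, 917, 841 and 1258 CPM against 2839, 1564, 3112 and 3008 CPM and was not called with mouse 581 included (-1.81 ± 0.69, adjusted p = 0.13), but was without it (-1.44, adjusted p = 0.0018). *Adam33*, a protease of smooth muscle and mesenchyme that was among the 12 largest decreases, had 0.901, 0.827, 1.05 and 1.57 CPM against 10.4, 5.604, 10.4 and 12.6 CPM (-3.19 ± 0.33, adjusted p = 0.001).

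Of 20 enteric neuron and glia genes, 2 fell (1 without mouse 851, 920, 927, 541 or 542 and 4 without 581) and 0 rose. One of these is *Gfap*, of enteric glia, which had 0.845, 1.44, 2.897 and 2.63 CPM in late mice against 13.8, 6.11, 10.6 and 11.3 CPM in untreated mice (log2 fold change -2.43 ± 0.40, adjusted p = 0.0057). The creatine kinase *Ckm* fell by 1.99, the 1 change among 6 skeletal muscle genes (2 without mouse 581 or 541). None of 7 genes of interstitial cells of Cajal and none of 11 adipocyte genes passed the test, and without mouse 581, 1 of each list fell.

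Fibroblast and matrix genes rose in part. Of 24, 6 rose and 1 fell, with a median of 0.53. The number that rose was 2 without mouse 920 or 541, 3 without 851, 918 or 542 and 10 without 581, and 3 fell without mouse 581. *Dcn* (decorin) had 254, 323, 319 and 274 CPM in late mice against 76.9, 29.8, 36.4 and 70.9 CPM in untreated mice (log2 fold change 2.43 ± 0.33, adjusted p = 0.0025), and *Lum* (lumican) had 59.04, 50.03, 55.8 and 45.6 CPM against 22.01, 9.19, 10.2 and 21.5 CPM (1.72 ± 0.32, adjusted p = 0.0091). Of 22 collagens, 1 rose with mouse 581 and 8 without it, against 15 of 22 in mice after 1 cycle, compared with the same untreated mice, and 1 fell without mouse 581. The collagen that rose with all mice is *Col14a1*, a collagen on the surface of fibrils, with 9.69, 42.7, 42.8 and 38.6 CPM against 5.37, 1.77, 2.06 and 5.12 CPM (3.18 ± 0.55, adjusted p = 0.0067). *Col1a2*, of the main fibrillar collagen, had 75.7, 249, 265 and 169 CPM against 102, 64.2, 85.2 and 155 CPM, not called with mouse 581 (0.87 ± 0.41, adjusted p = 0.22) and called without it (1.11, adjusted p = 0.0089).

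Endothelial markers depended on mouse 581 in the same way, 3 of 18 rising with it and 13 without it, around medians of 1.12 and 1.25 (1 rose without mouse 851 or 920). *Vcam1*, the adhesion molecule by which leukocytes leave vessels, had 17.2, 51.5, 35.5 and 34.5 CPM in late mice against 4.54, 2.88, 2.51 and 4.16 CPM in untreated mice (log2 fold change 3.27 ± 0.36, adjusted p = 0.0012), and *Icam1* rose by 2.18 on the log2 scale and was not called without any 1 of mice 851 or 920, with an adjusted p of 0.053 to 0.055. *Lyve1*, of lymphatic endothelium and some macrophages, had 4.0002, 25.1, 20.3 and 30.1 CPM against 8.04, 3.58, 1.97 and 7.69 CPM (1.86 ± 0.62, adjusted p = 0.086, and 2.17 with an adjusted p of 0.0018 without mouse 581).

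Clock genes moved in both directions. In the molecular clock BMAL1 with CLOCK or NPAS2 drives genes with E boxes (CACGTG), among them repressors that close the loop, so that *Arntl*, which encodes BMAL1, and genes such as *Dbp* peak at opposite times of day. Of 18 clock genes, 4 rose and 4 fell, with 8 rising without mouse 581 and 2 falling without mouse 541. In mice after 1 cycle 0 rose and 2 fell. *Arntl* had 7.49, 7.53, 5.94 and 10.5 CPM in late mice against 35.2, 33.02, 28.3 and 33.2 CPM in untreated mice (log2 fold change -2.07 ± 0.21, adjusted p = 0.001), and its partner *Npas2* had 1.24, 4.498, 4.66 and 5.89 CPM against 27.6, 28.9, 30.001 and 31.1 CPM (-2.88 ± 0.39, adjusted p = 0.0025). *Ciart*, a clock repressor, had 9.35, 6.49, 6.42 and 9.08 CPM against 0.0873, 0.404, 0.806 and 0.562 CPM (4.03 ± 0.49, adjusted p = 0.0016), and the output factor *Tef* had 78.7, 117, 99.1 and 134 CPM against 10.4, 19.1, 33.8 and 24.2 CPM (2.26 ± 0.35, adjusted p = 0.0043). *Dbp* rose by 2.46 on the log2 scale (adjusted p = 0.024; not called without any 1 of mice 918, 927, 541 or 555, with an adjusted p of 0.052 to 0.075; chosen after its values were seen).

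The late and untreated mice did not overlap in any of these 5 genes, where 14% of all genes were higher and 10.1% lower without overlap. After 1 cycle *Arntl* had 17.4 to 43.01 CPM and *Ciart* 0.465 to 2.34 CPM, and in KO mice late colon differed from untreated colon by -2.34 for *Arntl* and 3.64 for *Ciart* on the log2 scale. The hour of collection cannot be told apart from treatment. Of 15 listed clock genes with a promoter entry, 5 held an E box, against 7.15% of all promoters and 8.09% of genes with one. The promoter of *Ciart*, the gene with the largest clock increase, holds 3 of them, in capitals.
Ciart, chr3:95882247-95882364, - strand: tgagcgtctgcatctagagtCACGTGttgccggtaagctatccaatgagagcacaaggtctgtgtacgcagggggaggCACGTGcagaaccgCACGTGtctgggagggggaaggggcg

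The 12 largest decreases, fixed by the same rule, were led by *Mir6236* and *Lars2*, which lie on chromosome 9 at chr9:110281287-110281409 and chr9:123366927-123462666. *Mir6236* had 56.2, 73.7, 29.03 and 33.1 CPM in late mice against 848, 849, 1086 and 1126 CPM in untreated mice (log2 fold change -4.37 ± 0.38, adjusted p = 6.5e-04). *Lars2*, the mitochondrial leucyl-tRNA synthetase, had 161, 198, 91.6 and 103 CPM against 1823, 1695, 1813 and 1859 CPM (-3.72 ± 0.33, adjusted p = 6.5e-04). The genes lie megabases apart and do not overlap, and whether they share reads in another way was not tested. Both were low after 1 cycle (26.2 to 121 and 91.6 to 382 CPM) and in WT tumors (63.1 to 119 and 179 to 326 CPM) too, so that the 4 untreated libraries stood apart from every other WT library.

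A nuclear and a mitochondrial non-coding RNA were also lower, the first in all late mice and the second in late mice other than 581. Both were chosen after their values were seen. *Rn7sk*, a nuclear RNA without a poly(A) tail, had 3.55, 2.42, 1.05 and 1.39 CPM in late mice against 25.2, 4.897, 10.97 and 9.31 CPM in untreated mice (log2 fold change -2.61 ± 0.57, adjusted p = 0.017; not called without any 1 of mice 541, 542 or 555, with an adjusted p of 0.053 to 0.055). The mitochondrial rRNA *mt-Rnr2* had 2429, 328, 261 and 367 CPM against 2363, 771, 1544 and 1092 CPM (-0.75 ± 0.77, adjusted p = 0.62), and -2.23 (adjusted p = 0.001) without mouse 581. Of the 13 mitochondrially encoded mRNAs 2 fell (1 without mouse 851, 920, 927, 541, 542 or 555 and 7 without 581), and *mt-Nd5* had 841, 1157, 1127 and 1189 CPM against 3146, 1637, 2205 and 3229.6 CPM (-1.27 ± 0.30, adjusted p = 0.024; not called without any 1 of mice 851, 920, 927, 541, 542 or 555, with an adjusted p of 0.058 to 0.072). The part of RNA selection in the change of *Lars2* and *Mir6236* was not tested.

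The remaining genes of this set include *Tff2*, a trefoil peptide, with 0.113, 0.0636, 0.0896 and 0.152 CPM in late mice against 1.31, 1.31, 2.105 and 0.4999 CPM in untreated mice (log2 fold change -3.63 ± 0.52, adjusted p = 0.0031). *Nags*, the enzyme that makes the activator of the urea cycle, had 0.169, 0.764, 0.777 and 0.733 CPM against 4.37, 6.66, 7.34 and 4.499 CPM (-3.196 ± 0.41, adjusted p = 0.0019). *Cacna1g*, a T-type calcium channel, had 0, 0.573, 0.478 and 0.784 CPM against 5.502, 1.92, 3.13 and 4.84 CPM (-3.01 ± 0.64, adjusted p = 0.016; not called without any 1 of mice 851, 541 or 542, with an adjusted p of 0.051 to 0.054), and *AI838599* fell by 3.18 on the log2 scale. *Alpi*, *Ugt2b5*, *Ugt2b38*, *Npc1l1*, *Hoxb8* and *Adam33*, described above, complete the 12.

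Few genes passed the test between late colon and colon after 1 cycle. WT mice after 1 cycle differed from the same untreated mice in 1733 genes that rose (9.33%) and 750 that fell (4.04%), but late mice against 1-cycle mice gave 1 gene that rose and 1 that fell of 19202 tested (0.00521% each), with 1002 at an unadjusted p under 0.05. DESeq2 called 195 and 44. Without late mouse 581 edgeR called 18 higher (0.0921%) and 5 lower (0.0256%), without late mouse 555 it called 0 and 0, without 541 it called 1 and 0, and without 542 it called 2 and 0. The pair called with all mice is *Cma2* and *Spon2*, named after their values were seen. *Cma2* had 1.13, 0.976, 1.25 and 1.39 CPM in late mice and 0.0465, 0.0717, 0.07597 and 0.0957 CPM after 1 cycle (685, 686, 805 and 812; log2 fold change 3.94 ± 0.29, adjusted p = 0.0071). *Spon2*, a matrix protein that binds bacterial components, had 12.3, 15.8, 15.5 and 13.8 CPM in late mice and 57.4, 57.2, 85.8 and 79.7 CPM after 1 cycle (-2.26 ± 0.18, adjusted p = 0.0092), against 39.8, 18.7, 16.2 and 42.1 CPM in untreated mice.

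Some genes of the groups above are given with their log2 differences between late and 1-cycle mice, none of which passed this test. For *Mcpt1* and *Mcpt2* these differences were 2.68 ± 0.30 (adjusted p = 0.064) and 2.94 ± 0.37 (adjusted p = 0.074), for *Cdkn2a* 4.87 ± 0.59 (adjusted p = 0.065) and for *Krt14* 2.62 ± 0.28 (adjusted p = 0.052). The value was 5.53 ± 1.21 (adjusted p = 0.39) for *Ighg2c* and -1.96 ± 0.34 (adjusted p = 0.27) for *Arntl*.

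*Dnase1l3*, the secreted DNase that the study deletes in its KO mice, is intact in both groups here. It had 4.06, 3.204, 8.01 and 9.05 CPM in late mice against 3.06, 2.37, 1.79 and 3.59 CPM in untreated mice (log2 fold change 1.14 ± 0.38, adjusted p = 0.088; 1.25 with an adjusted p of 0.017 without mouse 581), and 7.29 to 8.84 CPM after 1 cycle. Late mice 581 and 541 lay close to or inside the untreated range. Of 18 genes for DNases and DNA sensing, 6 rose and 1 fell (median 0.38; 0 fell without any 1 of mice 851, 918, 920, 541, 542 or 555). *Sting1*, the adaptor of cytosolic DNA sensing, had 31.5, 26.2, 39.8 and 21.1 CPM against 4.67, 4.09, 3.45 and 6.75 CPM (2.62 ± 0.29, adjusted p = 0.0012). The endosomal receptors *Tlr7*, for RNA, and *Tlr9*, for unmethylated DNA, rose by 3.43 and 3.33 on the log2 scale, and *Tlr9* was not called without any 1 of mice 851, 918, 920 or 541, with an adjusted p of 0.052 to 0.069. The DNA-binding proteins *Ifi204* and *Ifi205* of the PYHIN family rose by 2.94 and 2.88.

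Some groups held few or no changes in WT mice. None of 24 proliferation genes passed both limits, with a median of -0.08 (-0.14 without mouse 581). *Mcm5*, a helicase subunit of DNA replication, had 41.8, 49.9, 54.1 and 43.5 CPM in late mice against 23.7, 30.6, 23.7 and 22.5 CPM in untreated mice, past the adjusted p but not the fold limit (0.89 ± 0.18, adjusted p = 0.012). None of 18 immediate early and heat shock genes passed, whereas without mouse 581, 3 of 20 rose and 1 fell, without mouse 918 1 rose and 1 fell, and without mouse 927 1 rose. Of 12 claudins 1 rose (*Cldn1*, by 2.66 on the log2 scale), and 2 rose without mouse 581 or 927, with 2 lower without 581. Of 20 cholesterol and lipid synthesis genes 2 rose (*Acly* among them), and 0 without any 1 mouse other than 581. Over all 56 lists, 876 of 1030 listed genes were tested. Epithelial antimicrobial and acute phase genes, unlike the groups that open this paragraph, rose in 9 of 27 cases (background 7.07%). They fell in 0 (2 without mouse 581), and their median of 1.49 was 0.52 without mouse 581. *Slpi*, a protease inhibitor of mucosal surfaces, had 16.96, 38.1, 77.5 and 41.3 CPM in late mice against 3.36, 1.57, 0.806 and 3.19 CPM in untreated mice (log2 fold change 4.25 ± 0.59, adjusted p = 0.0027). *Lcn2* (lipocalin 2), which binds bacterial siderophores, had 5.63, 7.53, 31.9 and 6.55 CPM against 0.742, 0.555, 0.582 and 1.47 CPM (3.89 ± 0.68, adjusted p = 0.007), highest in mouse 542 and without overlap between the groups.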

How the data were processed

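RNA of whole colon from 4 late and 4 untreated WT mice had been sequenced as single-end 75 nt reads. Per the labels, the submitters' notes name FastQC 0.11.5, STAR, Subread and the mouse genome mm10. The authors deposited raw counts per gene in 1 table for all 32 libraries (55291 genes). How the counting treated strand is not given in the sources used here, so overlapping genes on opposite strands may share counts.

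Each comparison was fitted on its own libraries with edgeR 4.0.16 in R 4.3.3, using TMM scaling, its filter on low counts, the quasi-likelihood F-test and Benjamini-Hochberg adjustment over all genes tested. Genes nearly absent from untreated mice pass this filter only through late mice. In lists with such genes, the share of tested members that rose therefore leans upward. Leaving out a mouse can also change which members pass, so some counts without a mouse rest on more members tested. A call needed an adjusted p under 0.05 together with more than a 2-fold difference. The standard error of a log2 fold change is its size divided by the root of F. CPM values were scaled by TMM over all 32 libraries. Alternatives used DESeq2 1.42.0, limma voom 3.58.1 with sample weights, other filters and scaling, and leaving out each mouse. The code was tested on simulated data.

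Named genes are the 12 largest increases and decreases with groups that do not overlap and a mean of at least 1 CPM in the higher group (no predicted genes, pseudogenes, immunoglobulin or T cell receptor genes), of each list described the members of smallest p (6 at most), defining markers, *Dnase1l3*, *Hoxb13*, and, for promoters, members of a list that rose together. Some genes that this rule names are not reported here. The members and lists were chosen with earlier results of these data known. Gene positions and exon lengths come from GENCODE annotation on GRCm38, and promoters from RefSeq on GRCm38.p6. Intervals of count ratios (95%) and floors (3 counts over a group) cover counting error only.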

Additional observations from a re-analysis of the deposited data

Results flagged for a closer look

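Of 292 groups of 4 mice that were checked (7 library measures and the named genes that reached 1 CPM), 32 held a mouse that stood apart from the other 3 by Dixon's test, and chance flags about 1 in 20 groups. The groups share mice, so the flags are not independent of each other.

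Late mouse 581 stood apart in 4 library measures. Mitochondrially encoded mRNAs took 15.07% of counts (other late mice 5.43% to 5.83%), ribosomal protein genes 7.602% (4.25% to 4.32%) and the 10 most abundant genes 24.77% (9.99% to 11.1%). The rank correlation of exon length with level relative to untreated libraries was -0.5366 (other late mice 0.31 to 0.36, untreated mice -0.115 to 0.1398). Mouse 581 was low for *Mki67* (3.38 CPM) and *Col14a1* (9.691 CPM). It was high for *Ly6g* (262.3 CPM), *Ccl8* (75.95 CPM), *Il1rn* (148.2 CPM), *Ear2* (13.13 CPM), *Pf4* (19.44 CPM) and *mt-Rnr2* (2429 CPM).

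Late mouse 542 stood apart with high levels of the tumor-high genes *Notum* (19.03 CPM) and *Wif1* (57.74 CPM), and of *S100a8* (10.66 CPM), *Cxcl5* (16.58 CPM), *Il33* (21.54 CPM), *Mmp12* (30.23 CPM) and *Lcn2* (31.93 CPM). Late mouse 541 stood apart with high levels of the immune genes *Cd79a* (38.23 CPM), *Gcsam* (2.97 CPM) and *H2-Ab1* (329.6 CPM), and late mouse 555 with *Gpnmb* (37.23 CPM).

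Among untreated mice, 927 was high for the immunoglobulin share (0.1836% of counts), *Igkc* (609.4 CPM), *Igha* (757 CPM), *Zbp1* (15.9 CPM) and *Ly6a* (162.5 CPM), and 851 for the share of ribosomal protein genes (5.606%). Untreated mouse 918 was low for *Smtn* (153.4 CPM) and *Ccl11* (1.464 CPM) and high for *Mcm5* (30.65 CPM).

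The 2 genes that differed between the late and the 1-cycle stage in edgeR's test are *Cma2*, with a log2 difference of 3.94 (adjusted p = 0.0071), and *Spon2*, with -2.26 (adjusted p = 0.0092). All 4 late mice lay on 1 side of all 4 1-cycle mice in both.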

How the results depend on the processing

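Across 17 alternatives to the late against untreated fit, 0 of 2799 values of 169 named genes reversed a called direction, and 126 of the 156 called genes stayed called in each alternative that gave them a value. Of 934 list medians, 849 moved by less than 1 SD between mice. Against 1303 genes that rose and 599 that fell, limma voom with sample weights gave 1997 and 1211, a fit of all 32 libraries 2005 and 923, a minimum of 10 counts in each library 649 and 378, and DESeq2 1911 and 940. DESeq2 without mouse 581, chosen after seeing the data, gave 2268 and 1193. Leaving out 1 mouse gave 931 to 2029 that rose and 354 to 1153 that fell. Over all lists, 267 members rose (144 with 10 counts in each library) and 54 fell (87 with voom, 91 with DESeq2 without mouse 581, 34 to 87 leaving out 1 mouse). For late against 1 cycle, DESeq2 called 195 and 44, and leaving out 1 late mouse gave 0 to 18 that rose and 0 to 5 that fell. For the interaction, DESeq2 called 9 and 24, and leaving out 1 late WT mouse gave 0 to 1 and 0 to 2. The filter and the number of libraries set how many genes are tested, and otherwise the cause was not tested. No paired analysis was possible because the groups compared share no mouse numbers. With 4 mice a group, changes under a fold of 2 and genes of a few counts stay beyond what these calls cover.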

Other observations

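Genes of platelets and red cells were not described above. Of 7, 3 rose and 0 fell, with a median log2 fold change of 1.18. *Pf4*, a chemokine of platelet granules that macrophages also express, had 19.4, 9.04, 7.62 and 7.61 CPM in late mice against 2.66, 1.21, 1.07 and 2.87 CPM in untreated mice (log2 fold change 2.46 ± 0.47, adjusted p = 0.0096 in edgeR's test), and the platelet chemokine *Ppbp* had 0.732, 0.403, 0.747 and 0.354 CPM against 0.0437, 0.101, 0.0448 and 0.125 CPM (2.66 ± 0.50, adjusted p = 0.009). The hemoglobin gene *Hba-a2*, with a near-identical copy, had 58.03, 37.8, 13.7 and 27.7 CPM against 21.05, 11.8, 10.8 and 16.6 CPM and was not called (1.18 ± 0.43, adjusted p = 0.11; 1.45 with an adjusted p of 0.043 without mouse 542).

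Of 7 mesothelial genes 1 rose (0 without mouse 851, 918, 541 or 542 and 2 without 581), *Gpm6a*, a membrane glycoprotein also of neurons, with 4.51, 3.12, 2.78 and 2.25 CPM in late mice against 0.917, 0.606, 0.134 and 1.09 CPM in untreated mice (log2 fold change 2.15 ± 0.51, adjusted p = 0.025), and it was not called without any 1 of mice 851, 918, 541 or 542, with an adjusted p of 0.053 to 0.073. *Msln* (mesothelin), which defines the cell type, had 0.676, 4.09, 4.18 and 3.36 CPM against 2.79, 1.11, 0.448 and 1.999 CPM and was not called (0.93 ± 0.61, adjusted p = 0.4; 1.22 with an adjusted p of 0.046 without mouse 581). Among mucins other than *Muc2*, *Muc1* had 3.27, 11.5, 20.8 and 7.08 CPM against 3.58, 4.54, 3.67 and 3.16 CPM (1.48 ± 0.48, adjusted p = 0.081; 1.76 with an adjusted p of 0.0022 without mouse 581).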
